A study of Mus musculus with 8 samples.

Results

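The mRNAs of the ubiquitin-conjugating (E2) enzymes were analyzed in mouse tibialis anterior (TA) muscles with and without UBA1 knockdown. The genes were taken by name, as every gene of the deposited expression table whose symbol begins with Ube2 and a further letter. This gave 38 of the 41709 genes listed, and no pseudogene row (-ps) had to be removed. The family itself was chosen with earlier results of these data known. Male C57BL/6J mice at 3 months of age received siRNA pools by electroporation into the TA muscles of both legs, after treatment with hyaluronidase, and the muscles were collected a week later. Of the 8 muscles, 4 received *Uba1* siRNAs and the 4 contralateral muscles received control non-targeting (NT) siRNAs. Libraries made from their total RNA were sequenced. Muscles with equal numbers (1 to 4) come from 1 mouse. The NT muscles are all labelled R and the *Uba1* siRNA muscles all L, so leg and siRNAs cannot be told apart. The treatment tags name UBA1 for mouse 1 but UBA2, UBA3 and UBA4 for mice 2, 3 and 4, whereas titles and methods name UBA1 for all. Electroporation does not reach every cell of a muscle, and RNA from whole muscle holds fibers and other cells, so that fewer cells of a type and less RNA per cell cannot be told apart.

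E2 enzymes stand in the middle of the ubiquitination cascade. UBA1, the main E1 enzyme, activates ubiquitin and hands it to a cysteine of an E2, and the E2 works with an E3 ligase that picks the substrate. The E2 largely sets the kind of ubiquitin chain that is built. Some E2s instead carry ubiquitin-like proteins such as NEDD8 or ISG15, which are activated by other E1 enzymes. In skeletal muscle this system removes sarcomeric and other proteins, for example when muscle wastes.

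The coding sequence around the cysteine that receives ubiquitin from UBA1 is shown for the E2 genes on which the results below turn. Each runs 5′ to 3′ from the codons of the histidine-proline-asparagine motif, which many E2s hold ahead of the cysteine, to the cysteine codon, which is in capitals. The sequences come from the GENCODE M39 transcripts of GRCm39. Coordinates give the first and last base on the genome, and those of *Ube2a*, *Ube2b*, *Ube2r2* and *Ube2h* span an intron that is not shown.
Ube2b (chr11:51879505-51882230, minus strand): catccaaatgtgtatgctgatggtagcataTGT
Ube2a (chrX:36145390-36146274, plus strand): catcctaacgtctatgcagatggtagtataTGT
Ube2d1 (chr10:71094080-71094112, minus strand): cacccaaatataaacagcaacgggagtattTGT
Ube2d3 (chr3:135165760-135165792, plus strand): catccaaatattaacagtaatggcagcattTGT
Ube2n (chr10:95377265-95377297, plus strand): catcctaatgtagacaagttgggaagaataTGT
Ube2r2 (chr4:41174110-41183259, plus strand): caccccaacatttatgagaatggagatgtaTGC
Ube2h (chr6:30241408-30242556, minus strand): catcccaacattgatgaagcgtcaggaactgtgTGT
Over these 33 bases, the close paralogs *Ube2d1* and *Ube2d3* differ at 6, *Ube2a* and *Ube2b* at 5, and *Ube2b* and *Ube2r2* at 14. Of the 38 genes, 37 have a coding sequence, 23 of these hold the 3 codons of the motif and 22 hold a cysteine codon within the next 12 codons. These codons were not found in *Ube2q1*, *Ube2q2*, *Ube2o*, *Ube2j1*, *Ube2j2* or *Ube2e3*, nor in *Ube2v1* and *Ube2v2*, which encode proteins without the catalytic cysteine. The gene listed as *Ube2cbp* is *Ube3d* in GENCODE M39 and encodes an E3 ligase that binds an E2, not an E2, and *Ube2uos* is a noncoding antisense gene. Both were kept, since they match the name.

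*Uba1*, the targeted gene, was at 60.6, 59.0, 63.6 and 59.1 TPM (a level per transcript length, scaled to the same total in each muscle) in NT muscles 1 to 4. In muscles 1 to 4 with *Uba1* siRNAs it was at 18.1, 6.77, 15.8 and 23.1 TPM. The groups did not overlap, with a log2FC of -1.98 (SE, the standard error, 0.290; adjusted p = 0.0527 from limma, 0.0278 with the legs of a mouse as a block). The exact permutation test gave p = 0.0286, the smallest that 4 muscles against 4 allow (two-sided). All log2FC given here are differences of mean log2(TPM + 1), *Uba1* siRNAs minus NT siRNAs. The share of mitochondrial transcripts was 42.1% to 45.7% in the NT muscles and 40.2%, 50.3%, 39.9% and 46.5% in muscles 1 to 4 with *Uba1* siRNAs, so that muscle 2 stood furthest from the others. Muscles 1 and 3 with *Uba1* siRNAs stood apart in another measure. Their scaling factors by median ratios, which compare a muscle's typical gene with its average over all muscles, were 1.12 and 1.11, against 0.944 to 0.988 in the other muscles.

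No E2 gene differed between the groups past an adjusted p of 0.05. A gene was tested if 4 or more muscles held 1 TPM or above, which left 32 of the 38 and 11530 genes in all. Of the 32, 0 passed (limma with Benjamini-Hochberg adjustment over all genes tested), against 0.026% of all genes. The smallest adjusted p was 0.162. With the mouse as a block, 0 of 32 passed against 0.494% of all genes. A Kruskal-Wallis test could not pass in this design, with a smallest P of 0.0209 and a smallest adjusted p of 0.180 over all genes. Before adjustment it called 6 E2 genes higher and 0 lower, against 17.5% and 1.71% of all genes. The differences were small: all 32 had a log2FC within 0.3 of 0 in either direction, from -0.21 for *Ube2l6* to 0.28 for *Ube2q2*, and the median standard error was 0.0818. For 30 of the 32, the 95% interval of the log2FC lay within 0.58 of 0, the size of change the study required of its mRNAs. The exceptions were *Ube2l6* (-0.85 to 0.44) and *Ube2c* (-0.31 to 0.64). By that size and P under 0.05 before adjustment, with the P from limma in place of the study's Kruskal-Wallis test, 0 of 32 genes and 1.27% of all genes differed.

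At an unadjusted P under 0.05, 6 of the 32 E2 genes (18.75%) were higher with *Uba1* siRNAs, against 16.0% of all genes tested, and 0 were lower, against 1.98%. The 6 were *Ube2q2*, *Ube2q1*, *Ube2r2*, *Ube2o*, *Ube2e3* and *Ube2j2*. In the same 6 genes, every muscle with *Uba1* siRNAs lay above every NT muscle, against 10.6% of all genes, and in 0 it lay below, against 1.01%. The share of the family at an unadjusted P was thus close to the background, whereas the share without overlap was above it (18.75% against 10.6%). Higher genes prevailed in both: 27 of 32 E2 genes had a log2FC above 0 (84.4%), as had 81.8% of all genes. The median log2FC was 0.10 for the E2 genes and 0.11 for all genes. After median-ratio scaling, which moved the median of all genes to 0.0016, the median of the E2 genes was -0.01 and 14 of 32 were above 0 (43.75%), against 50.7% of all genes. On that scale, 0 E2 genes were higher at an unadjusted P under 0.05, against 4.43% of all genes. *Ube2d1* and *Ube2n* were lower (6.25% of the family), against 6.18% of all genes.

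**Figure D1:**
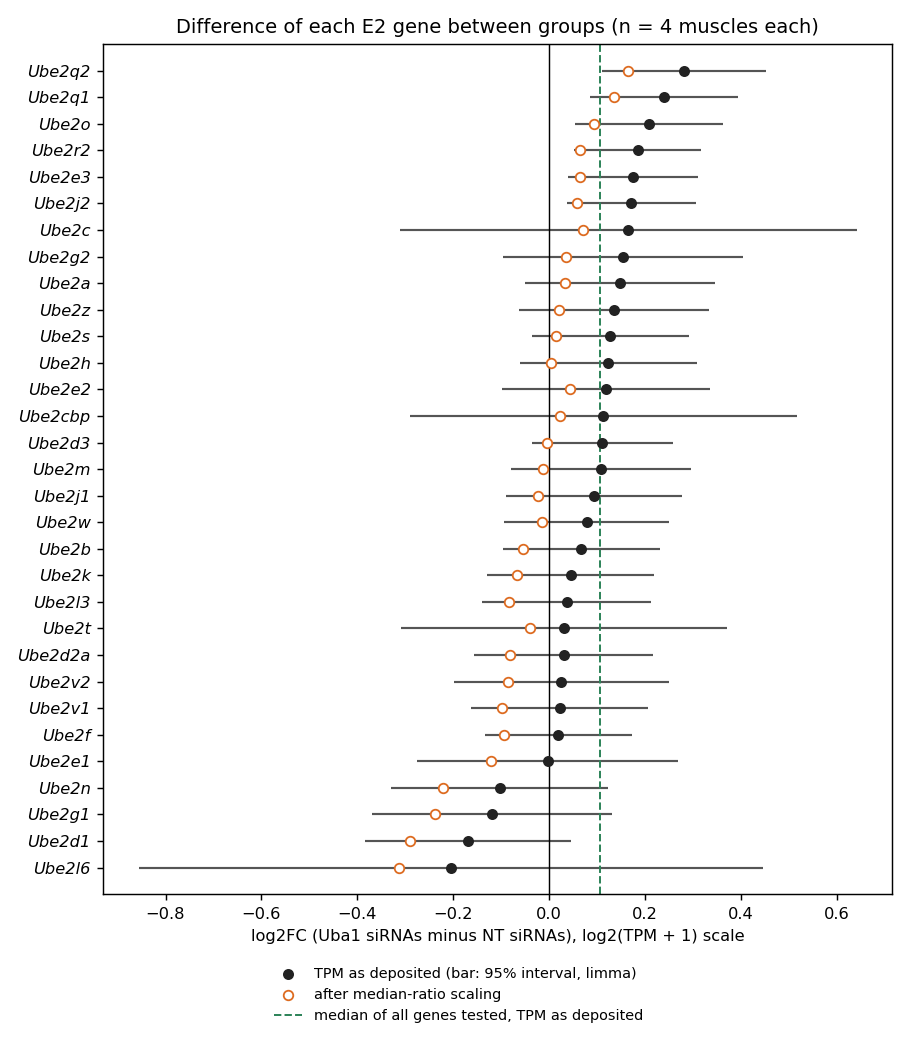
Difference in log2(TPM + 1) between muscles with *Uba1* and NT siRNAs for 31 of the 32 E2 genes tested (4 muscles per group). Filled points with bars are the log2FC and 95% interval from limma on TPM as deposited, open points are the log2FC after median-ratio scaling, and the dashed line is the median of all 11530 genes tested. All points lie within 0.3 of 0 for TPM as deposited, and each open point lies to the left of its filled point.

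The E2 genes did not move alike in the 4 mice. With *Uba1* siRNAs, 31 of the 32 were higher in mouse 1, against 83.3% of all genes tested, and 26 of 32 in mouse 3, against 81.8%. In mouse 2, 17 of 32 were higher, against 56.1% of all genes, and in mouse 4, 14 of 32, against 61.8%. *Ube2g1* was the one gene that was not higher in mouse 1, named here after its values were seen. With mice 2 and 4 only, a fit of 2 muscles against 2 that was chosen after seeing the data, 15 of 32 genes had a log2FC above 0 (46.9%), against 61.9% of all genes. At an unadjusted P under 0.05 in these mice, *Ube2j2* alone was higher, against 6.3% of all genes, and *Ube2d1*, *Ube2e1* and *Ube2l6* were lower, against 4.8%. Of the 6 genes named above, the other 5 had a log2FC between 0.09 for *Ube2o* and 0.22 for *Ube2q2* in mice 2 and 4, which could not fall below 0 since their groups did not overlap.

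The summed level of all 38 genes was 1073, 1079, 1095 and 1130 TPM in NT muscles 1 to 4. With *Uba1* siRNAs it was 1236, 1073, 1179 and 1101 TPM, so that muscles 1 and 3 were above all NT muscles and muscles 2 and 4 were within or close to their range. The means were 1094 ± 25.5 and 1147 ± 74.3 TPM (± SD over 4 muscles; exact p = 0.286 by two-sided permutation). The difference of 52.9 TPM was 23.2 without muscle 1 with *Uba1* siRNAs and reached 77.6 without muscle 2. The direction depended on the scaling. With TPM rescaled without mitochondrial transcripts the sum was higher with *Uba1* siRNAs in 4 of 4 mice (1944 ± 44.6 and 2062 ± 81.4 TPM; exact p = 0.0857). With median-ratio scaling it was lower in 4 of 4 mice, with a difference of -43.5 (exact p = 0.0571).

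Few of the genes chosen by name made up most of their summed mRNA. *Cdc34*, an E2 gene whose symbol does not begin with Ube2, is not among them. It was at 241 to 266 TPM in NT muscles and at 214 to 277 TPM with *Uba1* siRNAs. *Ube2b* alone held 29.4% of the summed TPM in NT muscles and the 8 most abundant genes held 71.6%, and 71.6% also with *Uba1* siRNAs. After *Ube2b* came *Ube2v1*, *Ube2m*, *Ube2r2*, *Ube2g2*, *Ube2d1*, *Ube2l3* and *Ube2h*. In the NT muscles, *Ube2b* (299 to 358 TPM) and *Ube2v1* (94.9 to 104 TPM) were apart from all others chosen by name. *Ube2m*, *Ube2r2* and *Ube2d1* overlapped in their ranges, between 65.1 and 74.8 TPM, and *Ube2g2* lay just under them. At the low end, *Ube2w*, *Ube2c*, *Ube2cbp*, *Ube2e2* and *Ube2t* had mean levels from 1.19 to 3.05 TPM in NT muscles.

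**Figure D2:**
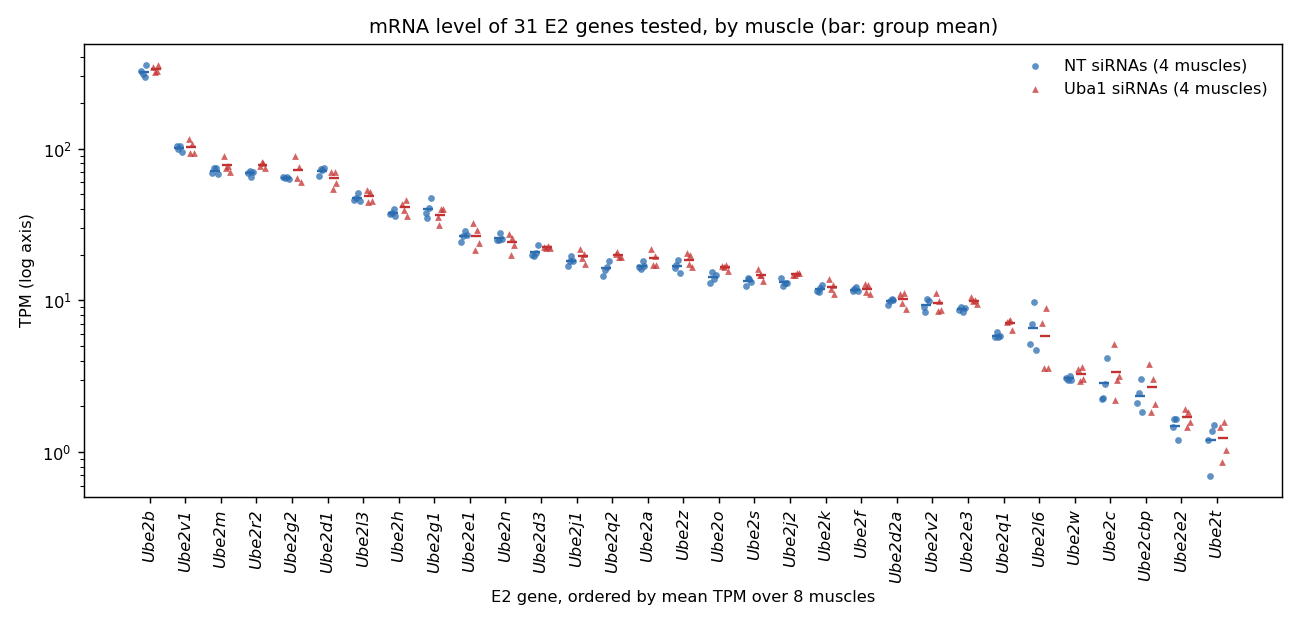
Level of 31 of the 32 E2 genes tested in every muscle, as TPM on a log axis, ordered by the mean over the 8 muscles. Circles are the 4 muscles with NT siRNAs, triangles the 4 with *Uba1* siRNAs and short bars the group means. *Ube2b* lies highest, with means of 322 and 337 TPM, and the levels run down to 1.19 and 1.23 TPM for *Ube2t*, with the 2 groups close to each other at every gene.

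The 2 genes with the largest log2FC, *Ube2q2* and *Ube2q1*, encode paralogous E2s with a long N-terminal extension. *Ube2q2* was at 14.4, 15.9, 16.5 and 18.2 TPM in NT muscles 1 to 4 and at 20.2, 20.8, 19.4 and 19.3 TPM with *Uba1* siRNAs. The level was 22.4% higher on average, with no overlap of the groups (log2FC 0.28, SE 0.0759, adjusted p = 0.162 from limma). *Ube2q1* was at 5.72, 6.17, 5.70 and 5.77 TPM in NT muscles and at 7.24, 7.33, 7.41 and 6.36 TPM with *Uba1* siRNAs. The groups again did not overlap, and the mean was 21.3% higher (log2FC 0.24, SE 0.0687, adjusted p = 0.169 from limma). After median-ratio scaling the log2FC stayed above 0, at 0.17 for *Ube2q2* and 0.13 for *Ube2q1*. The third gene of this type, *Ube2ql1*, was too low to be tested (0.361 to 0.684 TPM over all muscles).

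*Ube2r2* encodes a close relative of CDC34 that extends Lys48-linked chains with cullin-RING ligases. It was at 69.5, 70.9, 65.1 and 69.7 TPM in NT muscles and at 77.3, 81.8, 80.1 and 74.2 TPM with *Uba1* siRNAs. Each muscle with *Uba1* siRNAs was above all NT muscles (13.9% higher, log2FC 0.18, SE 0.0588, adjusted p = 0.182 from limma). Of the other genes for Lys48-linked chains, *Ube2k* had a log2FC of 0.04 (-0.07 after median-ratio scaling). *Ube2g1* was at 37.8, 34.7, 40.7 and 47.2 TPM in NT muscles and at 35.6, 31.4, 40.2 and 39.9 TPM with *Uba1* siRNAs. It was the one E2 gene tested that was lower in 4 of 4 mice, named here after its values were seen, but the groups overlapped (log2FC -0.12, adjusted p = 0.559 from limma, and -0.24 after median-ratio scaling, adjusted p = 0.481, or 0.117 with the mouse as a block). *Ube2o*, a large enzyme that combines E2 and E3 activity, was at 13.1, 15.4, 13.8 and 14.7 TPM in NT muscles and at 16.9, 16.6, 17.2 and 15.6 TPM with *Uba1* siRNAs. Its lowest muscle with *Uba1* siRNAs, that of mouse 4, was only slightly above the highest NT muscle (16.4% higher on average, log2FC 0.21, SE 0.0686, adjusted p = 0.190 from limma). For the 6 genes without overlap the log2FC after median-ratio scaling lay between 0.06 and 0.17. In sequence, *Ube2q2* and *Ube2j2* share 13.6% and 12.1% of their 100-base windows with other genes, and *Ube2r2* and *Ube2e3* none.

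**Figure D3:**
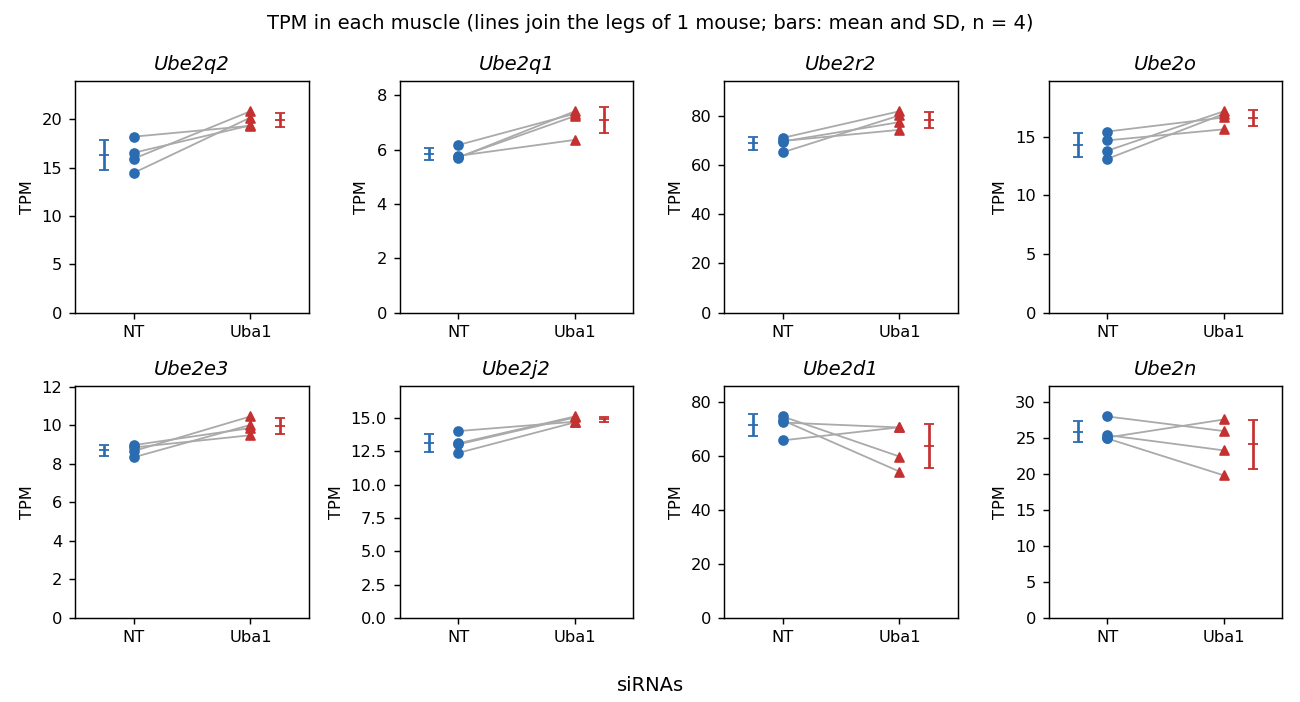
TPM in each muscle for the 6 E2 genes whose groups did not overlap (*Ube2q2*, *Ube2q1*, *Ube2r2*, *Ube2o*, *Ube2e3*, *Ube2j2*) and for *Ube2d1* and *Ube2n*. Lines join the legs of a mouse, and bars beside the points are mean and SD of 4 muscles. In the first 6 panels all 4 lines slope upward, whereas *Ube2d1* and *Ube2n* were lower in 3 of 4 mice.

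The UBE2D and UBE2E enzymes start or extend chains with many different E3 ligases. *Ube2d1*, the most abundant of them, was at 65.6, 73.1, 72.3 and 74.5 TPM in NT muscles and at 70.5, 54.1, 70.4 and 59.7 TPM with *Uba1* siRNAs. It was lower in mice 2, 3 and 4 and higher in mouse 1, and the groups overlapped (log2FC -0.17, SE 0.0950, adjusted p = 0.354 from limma). The log2FC of *Ube2d1* ran from -0.22 to -0.095 with each muscle left out. After median-ratio scaling its log2FC was -0.29 (adjusted p = 0.155 from limma), the lowest adjusted p among the E2 genes on that scale, and in mice 2 and 4 only it was -0.37 (adjusted p = 0.241 from limma). *Ube2d3*, which encodes a nearly identical enzyme, was at 19.9, 19.7, 20.4 and 23.1 TPM in NT muscles and at 22.5, 22.2, 22.9 and 22.1 TPM with *Uba1* siRNAs. It was higher in 3 of 4 mice (log2FC 0.11, adjusted p = 0.374 from limma, and -0.006 after median-ratio scaling). *Ube2d2a* was at 9.26, 9.96, 10.2 and 10.1 TPM in NT muscles and at 11.05, 9.63, 11.1 and 8.81 TPM with *Uba1* siRNAs, with overlapping groups (log2FC 0.03, adjusted p = 0.849 from limma, and -0.08 after median-ratio scaling). *Ube2e3* was at 8.67, 8.97, 8.34 and 8.85 TPM in NT muscles and at 10.5, 9.86, 10.03 and 9.49 TPM with *Uba1* siRNAs, without overlap (14.4% higher, log2FC 0.17, SE 0.0601, adjusted p = 0.202 from limma). Its paralogs *Ube2e1* and *Ube2e2* and the N-terminal monoubiquitinating enzyme gene *Ube2w* had log2FC of -0.0035, 0.12 and 0.08, and of -0.12, 0.043 and -0.015 after median-ratio scaling.

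A ratio of 2 genes within a muscle is nearly free of the scaling between muscles. For 12 ratios of paralogs or enzyme partners, 1 differed without overlap of the groups. The ratios were chosen with earlier results of these data known, and the p-values below do not account for that choice. *Ube2d1* was 3.30, 3.71, 3.54 and 3.23 times as abundant as *Ube2d3* in NT muscles 1 to 4. With *Uba1* siRNAs it was 3.13, 2.43, 3.07 and 2.70 times as abundant. The ratio was lower in 4 of 4 mice, as it must be in groups without overlap. This includes mouse 1, in which both mRNAs were higher. On the log2 scale the mean ratio was 1.74 ± 0.0894 in NT muscles and 1.45 ± 0.169 in muscles with *Uba1* siRNAs (± SD, n = 4 each), a difference of -0.28 (exact permutation test, two-sided, p = 0.0286, or 0.343 after Benjamini-Hochberg adjustment over the 12 ratios). Flipping signs within mice gave p = 0.125, the smallest that 4 pairs allow in an exact test. Of the 100-base windows of *Ube2d3*, 24.3% also occur in 4 other genes, so its level is uncertain, whereas *Ube2d1* shares none. The levels of *Ube2d2a* (44.2% of windows shared) and *Ube2e1* (46.9%) are uncertain too, and to a lesser extent those of *Ube2z* (19.2%), *Ube2m* (16.0%), *Ube2a* (14.6%) and *Ube2l3* (12.7%). The ratio of *Ube2g1* to *Ube2g2* was also lower in 4 of 4 mice, by 0.27 in log2 units on average, but the groups overlapped (exact p = 0.200). Its difference ran from -0.39 to -0.16 with each muscle left out. The other 10 ratios had exact p-values from 0.0857 to 0.600.

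**Figure D4:**
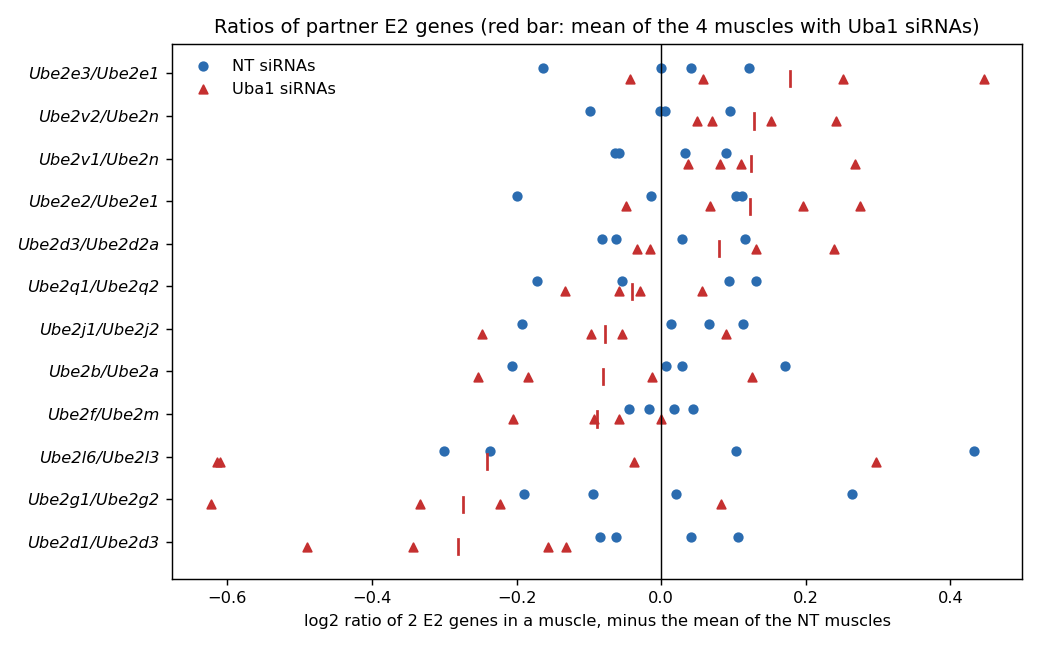
log2 ratio of 12 pairs of E2 genes in each muscle, after subtraction of the mean of the 4 NT muscles. Circles are NT muscles, triangles muscles with *Uba1* siRNAs and vertical bars their mean. All 4 triangles lie left of all circles for *Ube2d1*/*Ube2d3*, and the groups overlap for the other 11 ratios.

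*Ube2b* and *Ube2a* encode the RAD6 enzymes, which act with UBR ligases in the N-degron pathway and with RAD18 at damaged DNA. *Ube2b* was at 322, 310, 299 and 358 TPM in NT muscles and at 344, 321, 327 and 356 TPM with *Uba1* siRNAs. The groups overlapped and 3 of 4 mice were higher (log2FC 0.07, adjusted p = 0.622 from limma, and -0.05 after median-ratio scaling). *Ube2a* was higher in 4 of 4 mice with overlapping groups (log2FC 0.15, adjusted p = 0.376 from limma, and 0.03 after median-ratio scaling). *Ube2b* was 16.4 to 21.4 times as abundant as *Ube2a* in NT muscles and 15.7 to 20.7 times with *Uba1* siRNAs (exact permutation test of the log2 ratio, p = 0.486). *Ube2t*, whose product ubiquitinates the Fanconi anemia protein FANCD2, was at 1.21, 0.694, 1.37 and 1.496 TPM in NT muscles and at 1.46, 0.860, 1.59 and 1.03 TPM with *Uba1* siRNAs. The groups overlapped (log2FC 0.03, adjusted p = 0.923 from limma, and -0.04 after median-ratio scaling).

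*Ube2n* encodes the enzyme that builds Lys63-linked chains together with the inactive E2 variants *Ube2v1* or *Ube2v2*. *Ube2n* was at 25.01, 24.9, 27.9 and 25.4 TPM in NT muscles and at 27.5, 19.8, 25.9 and 23.2 TPM with *Uba1* siRNAs. It was lower in 3 of 4 mice (log2FC -0.10, adjusted p = 0.578 from limma), and after median-ratio scaling the log2FC was -0.22 (adjusted p = 0.281 from limma). For TPM as deposited it ran from -0.17 to -0.015 with each muscle left out. *Ube2v1* was at 104, 99.4, 104 and 94.9 TPM in NT muscles and at 116, 93.7, 107 and 93.2 TPM with *Uba1* siRNAs, with overlapping groups (log2FC 0.02, adjusted p = 0.896 from limma, and -0.10 after median-ratio scaling). *Ube2v2* had a log2FC of 0.02 (-0.09 after median-ratio scaling). *Ube2v1* exceeded *Ube2n* 3.72- to 4.15-fold in NT muscles and 4.01- to 4.74-fold with *Uba1* siRNAs, higher in 4 of 4 mice with overlap of the groups (exact permutation test of the log2 ratio, p = 0.114). Since 85.2% of the 100-base windows of *Ube2v1* also occur in other genes, its level is uncertain.

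Of the E2s that serve endoplasmic reticulum-associated degradation, *Ube2j1* and *Ube2j2* encode enzymes anchored in the membrane, and *Ube2g2* encodes one without such an anchor. *Ube2j2* was at 14.02, 12.4, 13.1 and 13.0 TPM in NT muscles and at 14.7, 14.7, 15.1 and 15.04 TPM with *Uba1* siRNAs. The muscles with *Uba1* siRNAs spread little and were all above the NT muscles (13.4% higher, log2FC 0.17, SE 0.0595, adjusted p = 0.207 from limma). *Ube2g2* was at 65.0, 63.8, 64.6 and 63.1 TPM in NT muscles and at 88.8, 64.1, 75.6 and 60.5 TPM with *Uba1* siRNAs. Its log2FC of 0.15 rested on muscles 1 and 3, and muscles 2 and 4 were close to the NT level (SE 0.111, adjusted p = 0.452 from limma). It was -0.026 in mice 2 and 4 only and 0.034 after median-ratio scaling of all 4 mice. *Ube2j1* had a log2FC of 0.09 (-0.022 after median-ratio scaling).

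The E2s of ubiquitin-like proteins are charged by E1 enzymes other than UBA1. *Ube2m*, for NEDD8, was at 68.9, 74.8, 74.8 and 67.9 TPM in NT muscles and at 89.4, 74.3, 76.3 and 69.9 TPM with *Uba1* siRNAs. Muscles 1 and 3 with *Uba1* siRNAs were above all NT muscles, muscle 3 by little, and muscles 2 and 4 were within their range (log2FC 0.11, adjusted p = 0.483 from limma, -0.01 after median-ratio scaling and 0.016 in mice 2 and 4 only). *Ube2f*, the other NEDD8 enzyme gene, had a log2FC of 0.02 (-0.094 after median-ratio scaling). *Ube2l6*, the interferon-inducible enzyme gene for ISG15, was at 5.11, 6.92, 9.68 and 4.73 TPM in NT muscles and at 7.13, 3.56, 8.86 and 3.59 TPM with *Uba1* siRNAs. Relative to its level, it varied more between mice than the other E2 genes of at least 5 TPM (SD 2.26 and 2.65 TPM), and 3 of 4 mice were lower (log2FC -0.21, SE 0.288, adjusted p = 0.701 from limma). Its log2FC was -0.31 after median-ratio scaling and -0.56 in mice 2 and 4 only, and it ran from -0.41 to -0.027 with each muscle left out. The summed level of 12 interferon response genes ran from 44.3 to 82.2 TPM in NT muscles and from 41.0 to 170 TPM with *Uba1* siRNAs, and 0 of the 10 tested passed. All 10 had a log2FC above 0, against 81.8% of all genes, with a median of 0.29 (0.19 after median-ratio scaling).

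*Ube2h* encodes the partner of the CTLH ligase complex, which is best known from maturing red blood cells. It was at 36.9, 37.5, 40.0 and 35.7 TPM in NT muscles and at 42.9, 39.6, 45.8 and 35.97 TPM with *Uba1* siRNAs. All 4 mice were higher, but by little in mouse 4, and the groups overlapped (log2FC 0.12, SE 0.0819, adjusted p = 0.421 from limma). After median-ratio scaling the log2FC was 0.004, and in mice 2 and 4 only it was 0.044. The summed level of 5 erythroid genes ran from 1923 to 6998 TPM in NT muscles and from 1841 to 3677 TPM with *Uba1* siRNAs. All 5 had a log2FC below 0, whereas 81.8% of all genes were above 0, with a median of -0.69 (-0.81 after median-ratio scaling). None passed the adjusted p, and 0 were lower at an unadjusted P under 0.05, against 1.98% of all genes. The part of these 5 genes in the level of *Ube2h* was not tested. *Ube2l3*, for RBR ligases such as parkin, was at 46.0, 47.2, 50.7 and 45.1 TPM in NT muscles and at 53.5, 44.4, 51.4 and 44.9 TPM with *Uba1* siRNAs. The groups overlapped (log2FC 0.04, adjusted p = 0.803 from limma, and -0.08 after median-ratio scaling). *Ube2z*, whose product is charged by the E1 enzyme UBA6, had a log2FC of 0.14 (0.020 after median-ratio scaling and 0.071 in mice 2 and 4 only).

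*Ube2c* and *Ube2s* serve the anaphase-promoting complex of dividing cells. *Ube2c* was at 2.22, 2.26, 2.83 and 4.13 TPM in NT muscles and at 5.13, 2.19, 3.00 and 3.16 TPM with *Uba1* siRNAs, with the highest value in muscle 1 (log2FC 0.17, SE 0.211, adjusted p = 0.671 from limma). In mice 2 and 4 only the log2FC was -0.17, and after median-ratio scaling of all 4 mice it was 0.07. *Ube2s* was at 12.5, 13.97, 13.8 and 13.3 TPM in NT muscles and at 16.2, 14.6, 14.8 and 13.4 TPM with *Uba1* siRNAs, higher in 4 of 4 mice with overlap of the groups (log2FC 0.13, adjusted p = 0.360 from limma, 0.013 after median-ratio scaling and 0.034 in mice 2 and 4 only). Of its 100-base windows, 91.2% also occur in other genes, so its level is uncertain. Of 12 genes of proliferating cells 1 was high enough to be tested and did not pass, and their sum was 4.06 to 9.12 TPM in NT muscles and 1.80 to 7.93 TPM with *Uba1* siRNAs.

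Of the 38 genes, 6 were not tested. *Ube2ql1* was at 0.522 ± 0.135 TPM in NT muscles and 0.529 ± 0.140 TPM with *Uba1* siRNAs (± SD, n = 4 each). *Ube2u* ran from 0 to 0.124 TPM. *Ube2d2b*, *Ube2dnl1*, *Ube2dnl2* and *Ube2uos* were listed at 0 in all 8 muscles. Among the genes not described above, *Ube2cbp* had a log2FC of 0.11 (0.022 after median-ratio scaling and -0.094 in mice 2 and 4 only).

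No gene of the pathway around the E2 enzymes passed the adjusted p either in the fit of TPM as deposited. Of 8 other E2-fold genes tested, 0 were at an unadjusted P under 0.05 in either direction, with a median log2FC of 0.06, and the same held for 0 of 13 genes of ubiquitin and ubiquitin-like modifiers (0.05), 0 of 11 of the CTLH complex (0.13) and 0 of 9 RBR ligase partners of *Ube2l3* (0.10). Of 10 genes of E1 enzymes and their partners, *Uba1* was lower and *Nae1*, a subunit of the NEDD8 E1, was higher (log2FC 0.17, adjusted p = 0.258 from limma). Of 7 neddylation partners, *Dcun1d4* and *Dcun1d5* were higher (log2FC 0.19 and 0.14) and *Dcun1d3* was lower (log2FC -0.29), with adjusted p from 0.166 to 0.244. With quantile normalization *Dcun1d3*, which encodes a scaffold for the NEDD8 ligation step, passed (log2FC -0.41, adjusted p = 0.0467 from limma, or 0.0488 with the mouse as a block). Of 9 partners in endoplasmic reticulum-associated degradation, 3 were higher, among them *Sel1l* and *Aup1* (log2FC 0.16 and 0.17). Of 8 ligase and adaptor partners for Lys63-linked chains, *Shprh* and *Znrf1* were higher (log2FC 0.31 and 0.17), and of 8 SUMO ligase partners *Pias1*, *Pias3* and *Pias4* (log2FC 0.18, 0.25 and 0.24). The genes named here, including *Uba1*, were chosen for an unadjusted P under 0.05, the share of which over all genes was 16.0% higher and 1.98% lower.

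The markers of muscle fibers were high in all muscles, as the tissue label states: 10 of 10 were tested, 0 passed, and their sum was 128318 to 138207 TPM in NT muscles and 100770 to 142324 TPM with *Uba1* siRNAs. Of the 10, 2 had a log2FC above 0, against 81.8% of all genes, with a median of -0.09 (-0.21 after median-ratio scaling). The summed levels of 10 macrophage genes (166 to 502 and 168 to 526 TPM), 8 endothelial genes (150 to 221 and 165 to 207 TPM) and 7 fibroblast genes (555.1 to 1146 and 721 to 1417 TPM) overlapped between NT and *Uba1* siRNAs, with a log2FC above 0 in 7 of 10, 5 of 8 and 6 of 7 genes. Of these, 1 of 10 macrophage genes, 0 of 8 endothelial genes and 2 of 7 fibroblast genes, *Col1a2* and *Lum* (log2FC 0.55 and 0.49), were higher at an unadjusted P under 0.05, against 16.0% of all genes, and none passed the adjusted p. The part of these cells in the levels of the E2 genes was not tested.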

How the data were processed

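Libraries that do not mark strand were made from total RNA of 8 TA muscles and sequenced as paired-end reads. The authors trimmed the reads, aligned them with CLC Genomics Workbench (version 20.0.4) to GRCm39 (mm39) and deposited a TPM value for each gene, a length-scaled abundance with the same total in every muscle. The annotation they used is not given in the sources used here. TPM keep no read total, so depth is unknown and no counting interval is given, and the number of muscles limits the precision. Each of the 8 columns could be tied to 1 muscle.

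A gene was tested if 4 or more muscles held 1 TPM or above, and log2(TPM + 1) was compared with limma (version 3.58.1, R 4.3.3; eBayes with trend), without a block and with Benjamini-Hochberg adjustment over all 11530 genes. The fit was tested on drawn log2 values for 11530 genes, in which 200 were shifted by 2 units: 99.5% of these were found, at 3.40% false calls, and 0 calls came up without any shift. Sums and ratios were compared by exact permutation of the muscles (two-sided). The study's criterion for mRNAs asked for P under 0.05 before adjustment and a log2FC of more than 0.58, with a Kruskal-Wallis test, which was run as an alternative. Muscles with the same number are legs of 1 mouse per the labels and the paper. Their deviations from the group means correlated at -0.00037, 0.20, 0.58 and 0.54 for mice 1 to 4, and the mouse was added as a block in an alternative. With 4 muscles per group, p-values measure the spread between these mice only.

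Positions, coding sequences and shared 100-base windows (both strands, canonical transcript against transcripts of other genes) come from GENCODE M39, in which all 38 genes were found. The genes named were the 8 most abundant, those at an unadjusted P under 0.05, *Ube2h*, *Ube2d1*, *Ube2d2a* and *Ube2d3*, which the study names, and *Ube2b*, *Ube2l6*, *Ube2c*, *Ube2s*, *Ube2t*, *Ube2n*, *Ube2v1* and *Ube2m* for their roles. Genes withheld from this text are counted but not reported here. Other members appear with their log2FC as the rest of their role group. From each pathway list, up to 3 genes at an unadjusted P under 0.05 were named, and *Cdc34* was named for its level. The E2 genes, the pathway and marker lists and the 12 ratios were chosen with earlier results of these data known. Alternatives were a pseudocount of 0.1, no filter, a mean of 5 TPM or more, scaling by median ratios, by quantiles or to the total without mitochondrial transcripts, the block alone or with either scaling, and leaving out each muscle. The fit of mice 2 and 4 only was chosen after seeing the data.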

Additional observations from a re-analysis of the deposited data

Results flagged for a closer look

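In 3 of 68 groups of 4 muscles searched, 1 muscle lay far from the other 3 by Dixon's criterion, where chance would give about 3.4. *Ube2n* was at 27.9 TPM in NT muscle 3, against 24.9 to 25.4 TPM in the other NT muscles. *Ube2q1* was at 6.17 TPM in NT muscle 2, against 5.70 to 5.77 TPM in the others. *Ube2q1* was also low in muscle 4 with *Uba1* siRNAs, at 6.36 TPM against 7.24 to 7.41 TPM, which was still above all NT muscles.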

How the results depend on the processing

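No E2 gene passed the adjusted p under any of the alternatives run, among which the Kruskal-Wallis test could not pass in this design. With mice 2 and 4 only, none of all genes tested passed, with a smallest adjusted p of 0.0723 from limma. With median-ratio scaling 0 genes were higher at an unadjusted P under 0.05, or 2 once the replicate block was added (*Ube2q1* and *Ube2q2*), against 4.43% and 6.96% of all genes. With quantile normalization 1 was higher (*Ube2q2*), with or without the block, against 4.45% of all genes, or 7.15% with it, and 1 with mice 2 and 4 only. The number lower was 1 without mitochondrial genes (2.03% of all), 2 after scaling by median ratios or by quantiles (6.18% and 5.16%), 3 under the block with median ratios or quantiles (*Ube2d1*, *Ube2n* and *Ube2g1*; 8.76% and 7.13%), and 3 with mice 2 and 4 only. The share of genes above 0 was 43.75% by median ratios and 53.1% by quantiles (54.6% of all genes), with or without the block, and 46.9% with mice 2 and 4. The median log2FC there was -0.013. Leaving out each muscle gave 5 to 7 genes higher and 0 to 1 lower, against 10.04% to 17.7% and 1.52% to 2.45% of all genes. The share above 0 ran from 56.25% to 87.5% (72.6% to 87.8% of all genes) and was lowest without muscle 1 with *Uba1* siRNAs, and the median log2FC ran from 0.040 to 0.13. The block alone changed no call of an E2 gene. The *Uba1* log2FC passed with the block (-1.98), the filter at a mean of 5 TPM (-1.98), without mitochondrial genes (-2.0), and after median-ratio (-2.09) or quantile scaling (-2.06), the last 2 also under the block. It ran from -2.18 to -1.64 with each muscle left out, and passed without muscle 2 or muscle 4 with *Uba1* siRNAs. The summed TPM difference reversed to -43.5 with median-ratio scaling.

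With median-ratio scaling, with or without the block, the log2FC reversed for *Ube2b* (-0.055), *Ube2d2a* (-0.081), *Ube2d3* (-0.0056), *Ube2f* (-0.094), *Ube2j1* (-0.022), *Ube2k* (-0.068), *Ube2l3* (-0.083), *Ube2m* (-0.012), *Ube2t* (-0.040), *Ube2v1* (-0.099), *Ube2v2* (-0.086) and *Ube2w* (-0.015). With quantile normalization, with or without the block, it reversed for *Ube2cbp* (-0.00067), *Ube2d2a* (-0.072), *Ube2f* (-0.075), *Ube2k* (-0.053), *Ube2l3* (-0.043), *Ube2t* (-0.058), *Ube2v1* (-0.025), *Ube2v2* (-0.078) and *Ube2w* (-0.039). With each muscle left out it ran from -0.011 to 0.31 for *Ube2c*, -0.011 to 0.090 for *Ube2d2a*, -0.011 to 0.077 for *Ube2l3*, -0.088 to 0.11 for *Ube2t* and -0.039 to 0.064 for *Ube2v1*. The *Ube2d1*/*Ube2d3* difference was -0.28 with signs flipped within pairs (replicate block) and ran from -0.33 to -0.21 with each muscle left out, and neither test can reach an exact p under 0.05 (0.125 and 0.0571 are the smallest). The *Ube2q1*/*Ube2q2* difference ran from -0.098 to 0.0030. The cause of these shifts was not tested. Depth is unknown, and the largest SEs were those of *Ube2l6* (0.288), *Ube2c* (0.211) and *Ube2cbp* (0.179).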
